A study of Euphorbia esula with 15 samples.

Results

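Small heat shock proteins were followed in the crown buds of leafy spurge (Euphorbia esula), the underground buds at the top of the root from which a weed that has lost its shoots regrows. The members were defined by sequence likeness: assembled contigs whose closest Arabidopsis protein was 1 of 10 small heat shock proteins, summed within each component, the assembler's unit that stands for a gene. Such contigs numbered 114 and lay in 46 of the 223732 components of the assembly. A summed level was kept when its mean exceeded 5 normalized counts at any time point, which left 12 components, among 23247 features kept in the whole table.

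Buds came from plants of 1 uniform biotype, 1984-ND001, with no glyphosate treatment, grown in a chamber at 27 °C with a 16 h photoperiod. The groups were intact plants with paradormant buds (0 h, 3 libraries) and plants whose shoots had been cut at soil level 6 h, 24 h or 72 h before harvest (4 libraries each), and all buds were taken around the same hour of day. Each library held buds pooled from many plants, so that spread between plants was averaged within a library. All groups were kept at the same temperature. Fewer cells of a type cannot be told apart from less RNA per cell in such whole buds.

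Small heat shock proteins share the alpha-crystallin domain and form oligomers that hold unfolding proteins in a soluble state until HSP70 and HSP101 refold them. Plants make separate families for the cytosol, mitochondrion, endoplasmic reticulum, chloroplast and peroxisome. They are best known for strong induction by heat through heat shock factors, and many are also made during seed maturation.

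Library totals ranged from 1847115 to 8766393 expected counts, and the edgeR common biological coefficient of variation was 10.15%. The libraries carried transcripts of bud meristem regulators, whose summed level lay between 1392 and 1798 normalized counts in every library, although the stem cell gene WUS and the boundary gene CUC1 had no component. The sum of the bud meristem regulators ranged from 1392 to 1510 at 0 h and from 1605 to 1798 at 72 h. Root markers summed to between 0 and 7.81 normalized counts per library. Among the 6 small heat shock protein components present at every time point, replicate 3 was the highest of the 3 libraries at 0 h in 6 of 6, and values without it are given where they change a call.

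The 10 Arabidopsis homologues were unevenly represented. Cytosolic class I proteins accounted for most of the components kept: HSP17.6B-CI (AT2G29500) for comp109670_c0, HSP18.2-CI (AT5G59720) for comp88907_c0 and comp93012_c0, HSP17.8-CI (AT1G07400) for comp108830_c1 and comp121254_c0, and HSP17.4-CI (AT3G46230) for comp92421_c0. The kept component comp131110_c0 joined contigs closest to HSP17.4-CI (83.9% of its counts) and HSP18.2-CI, and comp106266_c0 joined HSP17.8-CI (62% of its counts) and HSP17.6A-CI (AT1G59860). Mitochondrial HSP23.6-MT (AT4G25200) was the best match of comp116236_c0, comp132276_c0 and comp127267_c0. Endoplasmic reticulum HSP22.0-ER (AT4G10250) was that of comp103048_c0.

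No component was kept for HSP17.6C-CI (AT1G53540), for the class II cytosolic protein HSP17.6-CII (AT5G12020) or for the chloroplast protein HSP21-CP (AT4G27670). Contigs closest to HSP17.6C-CI held 5 expected counts in all. The only HSP17.6-CII component held 6 expected counts over the 15 libraries, with a mean of 1.76 normalized counts at 0 h and 0.161 or less at the other times. HSP21-CP contigs held 15 expected counts in all. Of the 34 components not kept, 13 were at 0 in every library, and the highest mean among the rest was 2.84 normalized counts, against 5.55 for the least abundant component kept. The kept components carried 98.7% of the expected counts on member contigs. The kit marked strand and the counting command took fragments of 1 orientation only, while the orientation of contigs was not given, so a contig at 0 cannot be read as an absent transcript.

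Of the 12 kept components, 6 had a mean above 5 normalized counts at all 4 times. A further 5 passed at 1 time only: comp92421_c0 at 24 h, comp127267_c0 at 6 h, and comp103048_c0, comp106266_c0 and comp131110_c0 at 72 h. A difference between times was thus built into their selection, and their tests that involve that time are descriptive. Best hits were all plant sequences. The main contig of comp109670_c0 matched HSP17.6B-CI at an E value of 3e-57, and those of comp116236_c0 and comp93012_c0 matched HSP23.6-MT at 3e-46 and HSP18.2-CI at 5e-46. The match was weaker for comp92421_c0 (8e-36), comp106266_c0 (3e-31), comp103048_c0 (3e-29), comp88907_c0 (7e-28), comp127267_c0 (1e-22), comp132276_c0 (3e-22), comp108830_c1 (1e-20) and comp121254_c0 (7e-16). Their names are therefore those of the nearest relative and no more. In comp108830_c1, 51.35% of the counts lay on the main contig, and its other member contigs matched at 2e-08 and 2e-07.

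Across the 4 time points, 10 of the 12 components differed, against 53.9% of all features tested. Since the members had passed the filter in part through the time at which they were high, this count is descriptive. At 6 h relative to 0 h, 3 components fell and none rose, where 15.3% of all features changed, with 7.86% higher and 7.43% lower. At 24 h relative to 0 h, 4 rose and 3 fell, where 41.8% of features changed, with 20.2% higher and 21.6% lower. The rises include comp92421_c0, which passed the filter through 24 h only. At 72 h relative to 0 h, 1 rose and none fell, where 13.2% of features changed, with 7.05% higher and 6.1% lower. The 3 comparisons share the 0 h libraries.

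Between later times, 6 components rose and none fell at 24 h relative to 6 h, where 33.4% of features changed, with 15.4% higher and 18% lower. The rises again include comp92421_c0, which passed the filter through 24 h only. At 72 h relative to 24 h, 5 rose and 3 fell, where 42.4% of features changed, with 21.9% higher and 20.5% lower. The rises include comp103048_c0 and comp131110_c0, which passed the filter through 72 h only, and the falls include comp92421_c0. At 72 h relative to 6 h, 4 rose and 1 fell, where 18.6% of features changed, with 10.1% higher and 8.52% lower. The fall was that of comp127267_c0, which passed the filter through 6 h only. For these named components a difference was built into the selection, so the counts that hold them are descriptive. Relative to 0 h, the median log2 fold change of the 12 components stood at -0.07 (6 h), 0.37 (24 h) and 0.63 (72 h), and that of all features lay within 0.03 of 0. The 72 h median includes components kept through 72 h only. For the 6 components present at every time point, the 72 h values were -0.12, 0.149, 0.189, 0.201, 0.25 and 1.01.

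**Figure D1:**
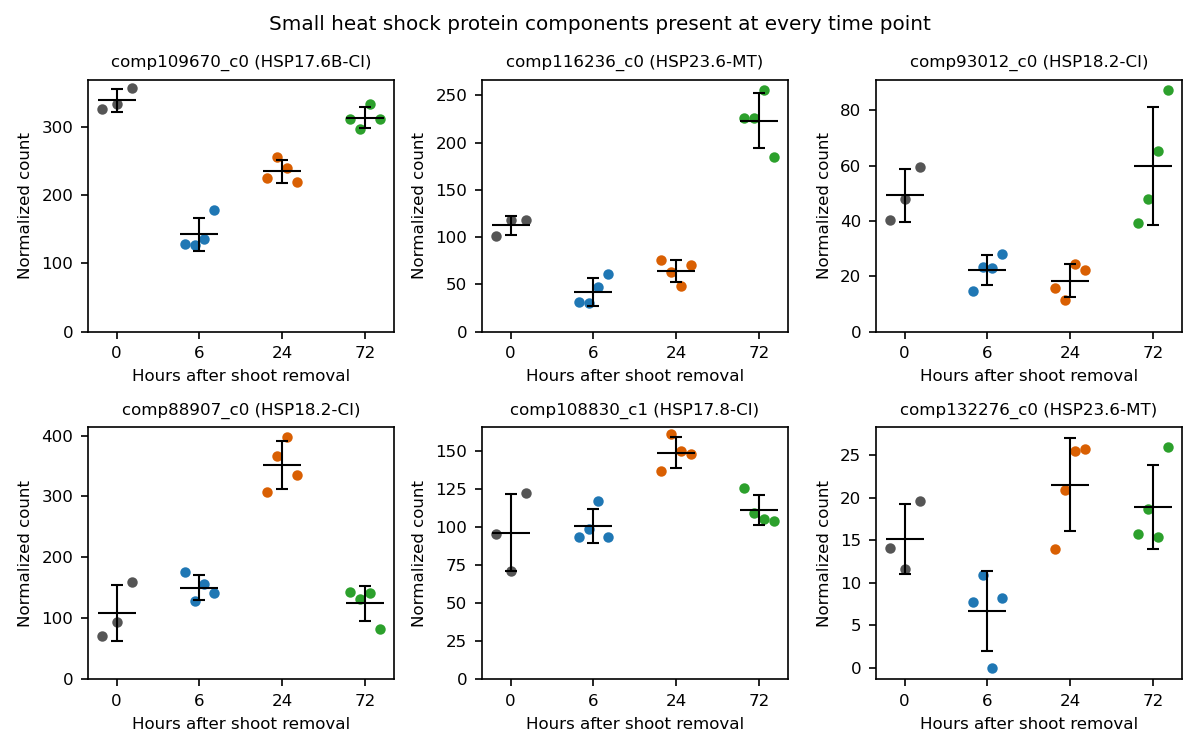
Normalized counts (y axis of each panel, starting at or just below 0) of the 6 small heat shock protein components present at every time point, against hours after shoot removal (x axis, categories). Points are libraries, and bars give the mean ± SD (n = 3 at 0 h and n = 4 at the later times). In the upper row levels were low at 6 h and high again at 72 h, whereas comp88907_c0 and comp108830_c1 were highest at 24 h, with means of 352 and 149 normalized counts.

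A group of 3 components fell early and recovered by 72 h: HSP17.6B-CI, HSP23.6-MT and HSP18.2-CI, named by best match. They were lower at 6 h and at 24 h than at 0 h, by 1.15 to 1.47 on the log2 scale at 6 h, and each rose at 72 h relative to 24 h. By 72 h, HSP23.6-MT stood above its level in paradormant buds, and the other 2 were not called against 0 h.

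The HSP17.6B-CI component comp109670_c0, a cytosolic holdase, was measured at 326, 333 and 357 normalized counts at 0 h. The libraries of 6 h had 128, 127, 135 and 179, those of 24 h had 225, 257, 240 and 219, and those of 72 h had 312, 297, 333 and 312. The libraries of 6 h lay below all others, those of 24 h stood between, and those of 72 h overlapped with 0 h. At 6 h it fell by 1.26 (SE 0.105, adjusted p = 9.43e-09) on the log2 scale, a 2.4-fold decrease. At 24 h it was still lower than at 0 h, with a log2 fold change of -0.52 (adjusted p = 0.000134), though higher than at 6 h by 0.74 (adjusted p = 3.76e-06). At 72 h the log2 fold change from 0 h was -0.12 (SE 0.101, adjusted p = 0.5).

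Most of the counts of this component (66.8%) lay on a single contig, which averaged 235 normalized counts at 0 h, 84.2 at 6 h, 170 at 24 h and 201 at 72 h. The course of the sum was thus also that of its main contig. The remaining counts were divided among 15 other contigs with counts, a split that is uncertain because RSEM shares a fragment among near-identical sequences.

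The HSP23.6-MT component comp116236_c0, which belongs to the mitochondrial family, had 101, 118 and 118 normalized counts at 0 h. Libraries taken at 6 h had 30.8, 30.0, 47.3 and 60.7, those of 24 h had 75.4, 63.0, 48.3 and 70.3, and those of 72 h had 226, 226, 255 and 184. Relative to the libraries of 0 h, all of 6 h and 24 h were lower and all of 72 h higher. On the log2 scale it differed from 0 h by -1.47 (SE 0.196, adjusted p = 8.2e-06) at 6 h, -0.81 (SE 0.173, adjusted p = 0.000612) at 24 h and 1.01 (SE 0.168, adjusted p = 0.000224) at 72 h. At 72 h it was 5.58-fold higher than at 6 h (log2 2.48, SE 0.179, adjusted p = 1.84e-09), and 3.51-fold higher than at 24 h. The increase at 24 h over 6 h (log2 0.67, adjusted p = 0.0085) involved overlapping libraries and was not called without replicate 2 of 6 h (0.46, adjusted p = 0.0915).

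Within a library, the log2 ratio of comp116236_c0 to comp109670_c0 was between -0.76 and -0.38 in the 4 libraries of 72 h, and between -2.29 and -1.49 in the 11 earlier ones. The mitochondrial component thus gained on the cytosolic one at 72 h. This ratio, on log2(normalized count + 1), was chosen after the values had been seen and carries no test.

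The HSP18.2-CI component comp93012_c0 had 40.5, 48.1 and 59.6 normalized counts at 0 h. The libraries of 6 h had 14.8, 23.2, 22.84 and 28.04, those of 24 h had 15.9, 11.3, 24.3 and 22.3, and those of 72 h had 39.3, 47.9, 65.4 and 87.4. Libraries of 6 h and 24 h were all below those of 0 h and 72 h, which overlapped one another. On the log2 scale it differed from 0 h by -1.15 (SE 0.268, adjusted p = 0.00422) at 6 h, -1.49 (SE 0.259, adjusted p = 6.4e-05) at 24 h and 0.20 (adjusted p = 0.672) at 72 h. The rise at 72 h over 24 h was 3.23-fold (adjusted p = 8.28e-06). Its 2 contigs were not parallel, since comp93012_c0_seq2 averaged 45.5, 9.50, 18.45 and 50.2 normalized counts at 0, 6, 24 and 72 h, whereas comp93012_c0_seq1 averaged 3.85, 12.7, 0 and 9.82, and their split is subject to the same sharing of fragments.

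A second group peaked at 24 h. The leading member, comp88907_c0, has HSP18.2-CI as its nearest Arabidopsis protein, as comp93012_c0 does, and its best database hit was named a 17.9 kDa class I protein. It had 70.5, 94.5 and 160 normalized counts at 0 h. Libraries taken at 6 h had 175, 128, 157 and 141, those of 24 h had 308, 366, 397 and 336, and those of 72 h had 143, 131, 142 and 82.7. Every library of 24 h exceeded every library of the other times, which overlapped among themselves. At 24 h it rose 3.16-fold over 0 h (log2 1.66, SE 0.185, adjusted p = 1.83e-07) and 2.37-fold over 6 h (log2 1.25, adjusted p = 2.95e-06). At 72 h it fell by 1.47 (SE 0.174, adjusted p = 3.06e-07) on the log2 scale relative to 24 h.

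Whether comp88907_c0 was called at 6 h relative to 0 h depended on the libraries and the filter. Its log2 fold change from 0 h was 0.41 (adjusted p = 0.178) with all libraries, and 0.89 (adjusted p = 0.00176) without replicate 3 of 0 h, the library at 160 normalized counts. It was also called with no filter on low counts (0.41, adjusted p = 0.0448). Likewise the 72 h value was 0.19 (adjusted p = 0.624) with all libraries and 0.67 (adjusted p = 0.027) without that replicate.

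The 2 components with HSP18.2-CI as nearest relative moved in opposite directions at 24 h. The log2 ratio of comp88907_c0 to comp93012_c0 within a library was 3.85 to 4.90 at 24 h and 2.29 to 3.48 at 6 h, against 0.78 to 1.41 at 0 h, and it was -0.08 to 1.84 at 72 h. The libraries of 24 h, those of 6 h and those of 0 h did not overlap in this ratio. The ratio was chosen after the values had been seen, and no test is given.

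The HSP17.8-CI component comp108830_c1 followed the same course with a smaller amplitude. It had 95.6, 71.3 and 122 normalized counts at 0 h. The libraries of 6 h had 93.8, 98.5, 118 and 93.2, those of 24 h had 137, 161, 150 and 148, and those of 72 h had 126, 110, 105 and 104. The libraries of 24 h were above all others. At 24 h it rose 1.49-fold over 0 h (log2 0.58, SE 0.132, adjusted p = 0.00111), and at 72 h it fell by 0.43 (SE 0.127, adjusted p = 0.00844) relative to 24 h. Its 3 contigs each had their highest mean at 24 h.

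The less abundant comp132276_c0, nearest to HSP23.6-MT, had 14.1, 11.6 and 19.6 normalized counts at 0 h. Libraries taken at 6 h had 7.66, 10.9, 0 and 8.18, those of 24 h had 13.97, 20.9, 25.4 and 25.7, and those of 72 h had 15.71, 18.6, 15.36 and 26.0. Libraries of 6 h were below all others, including 1 with no count. The difference of 6 h from 0 h missed the threshold (log2 -1.01, SE 0.396, adjusted p = 0.0912), whereas it rose at 24 h over 6 h (log2 1.43, adjusted p = 0.00227) and at 72 h over 6 h (log2 1.26, adjusted p = 0.023). The call at 72 h over 6 h was lost without replicate 1 of 6 h (1.24, adjusted p = 0.0509), replicate 2 of 72 h (1.26, adjusted p = 0.0783) or replicate 4 of 72 h (1.15, adjusted p = 0.0601).

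**Figure D2:**
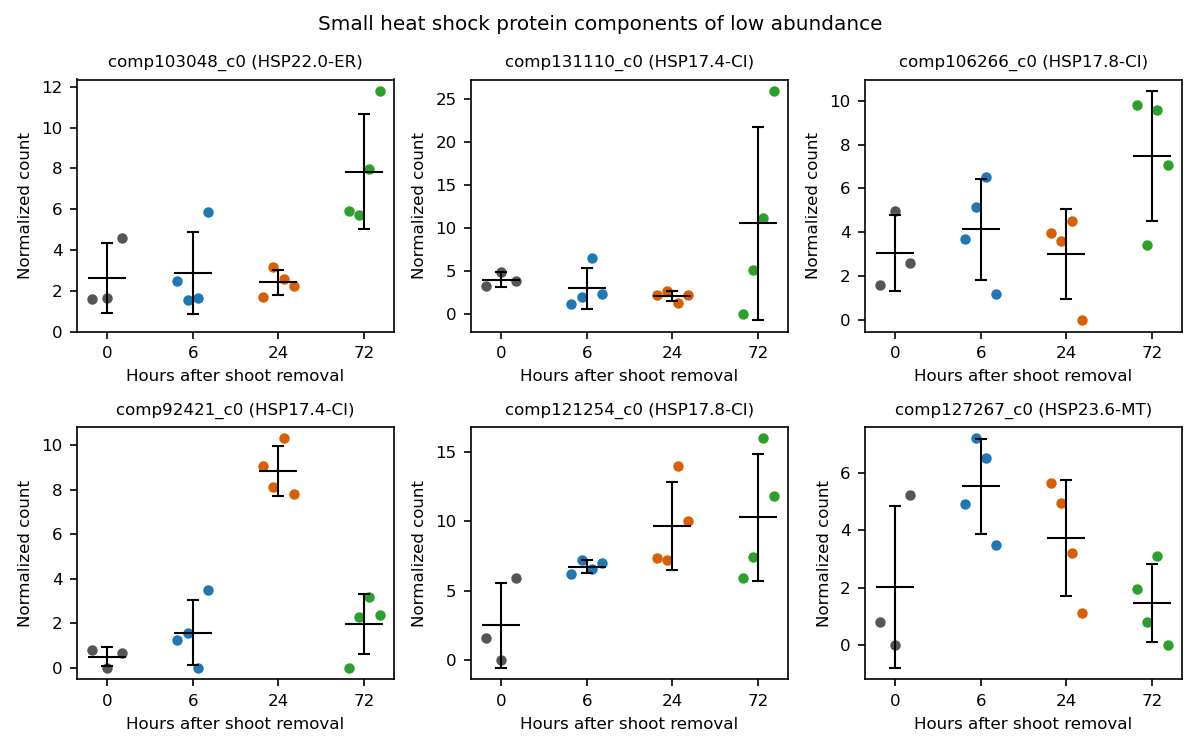
Normalized counts (y axis of each panel) of the 6 less abundant small heat shock protein components against hours after shoot removal (x axis, categories). Points are libraries, and bars give the mean ± SD (n = 3 at 0 h and n = 4 at the later times). Values reach 26.0 at most, and comp92421_c0 had 7.81 to 10.3 in the libraries of 24 h and 3.50 or less elsewhere.

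Of the 6 remaining components, none exceeded 26.0 normalized counts in any library. Among them, comp92421_c0, nearest to the cytosolic HSP17.4-CI, passed the filter through 24 h only. Its tests of 24 h against other times are therefore descriptive. It had 0.81, 0 and 0.655 normalized counts at 0 h. The libraries of 6 h had 1.23, 1.55, 0 and 3.50, those of 24 h had 9.08, 8.13, 10.3 and 7.81, and those of 72 h had 0, 2.28, 3.19 and 2.36. The libraries of 24 h lay apart from all others. They held 57 counts, against 2 at 0 h, a depth-corrected ratio of 14.9 with a 95% counting interval of 3.95 to 126. It also rose at 24 h over 6 h (log2 2.35, SE 0.469, adjusted p = 0.000422) and fell by 2.02 (SE 0.483, adjusted p = 0.00154) at 72 h relative to 24 h. Counting intervals cover counting error only.

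The HSP17.8-CI component comp121254_c0 had 1.62, 0 and 5.89 normalized counts at 0 h. Libraries taken at 6 h had 6.17 to 7.22, those of 24 h had 7.23 to 13.9, and those of 72 h had 5.89 to 16.0. Only at 24 h did the test call it higher than at 0 h (log2 1.53, SE 0.493, adjusted p = 0.0151), a call that was lost without replicate 1 of 0 h (1.19, adjusted p = 0.0955) or replicate 3 of 24 h (1.27, adjusted p = 0.0528). Without replicate 3 of 0 h, the log2 fold change at 24 h was 3.01 (adjusted p = 0.00191), and the differences at 6 h (2.55, adjusted p = 0.0346) and 72 h (3.03, adjusted p = 0.0114) were called as well. The 72 h difference (1.56, adjusted p = 0.0595) was also called without replicate 3 of 24 h (1.55, adjusted p = 0.0495).

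The HSP22.0-ER component comp103048_c0, of the family that resides in the endoplasmic reticulum, had 5.89, 5.71, 7.97 and 11.8 normalized counts at 72 h, against 1.70, 3.16, 2.58 and 2.23 at 24 h. The libraries of 72 h were above all those of 24 h and of 0 h, where it had 1.62, 1.66 and 4.58, and overlapped with those of 6 h. It rose at 72 h over 24 h (log2 1.49, SE 0.467, adjusted p = 0.0129), while the increase over 0 h was not called (log2 1.25, SE 0.526, adjusted p = 0.127). Since it passed the filter through 72 h only, its tests of 72 h are descriptive. The difference of 72 h from 6 h (1.39, adjusted p = 0.0588) was called without replicate 3 of 0 h (1.39, adjusted p = 0.0494) or replicate 4 of 6 h (1.93, adjusted p = 0.0183).

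The mixed HSP17.4-CI and HSP18.2-CI component comp131110_c0 spread widely at 72 h, with 0, 5.14, 11.2 and 26.0 normalized counts, against 2.27, 2.71, 1.29 and 2.23 at 24 h. The increase (log2 1.95, adjusted p = 0.0122) came with overlapping libraries and was lost without replicate 4 of 72 h (1.32, adjusted p = 0.0852). This component passed the filter through 72 h only, so its tests of 72 h are descriptive. Its difference at 72 h from 6 h (1.68, adjusted p = 0.0752) was called without replicate 3 of 6 h (2.11, adjusted p = 0.0434), replicate 1 of 72 h (1.99, adjusted p = 0.0197) or replicate 2 of 72 h (2.10, adjusted p = 0.0461). The mixed HSP17.8-CI and HSP17.6A-CI component comp106266_c0 had 3.42 to 9.82 at 72 h and 1.62 to 4.97 at 0 h, and no comparison of it was called.

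The third component nearest to HSP23.6-MT, comp127267_c0, had 1.96, 0.782, 3.09 and 0 normalized counts at 72 h, against 4.94, 7.22, 6.53 and 3.50 at 6 h. This was the only component called lower at 72 h than at 6 h (log2 -2.15, SE 0.745, adjusted p = 0.0455), opposite in direction to comp116236_c0 with the same nearest relative. Because comp127267_c0 passed the filter through 6 h only, its tests of 6 h are descriptive. The call was lost without replicate 1 (-2.21, adjusted p = 0.0653) or 3 (-2.12, adjusted p = 0.0698) of 6 h. It was likewise lost without replicate 1 (-2.31, adjusted p = 0.0597), 2 (-1.55, adjusted p = 0.275) or 4 (-1.96, adjusted p = 0.0925) of 72 h. Without replicate 3 of 0 h, at 5.24 where the other libraries of 0 h had 0.81 and 0, it was called higher than 0 h at 6 h (3.19, adjusted p = 0.0324) and 24 h (2.70, adjusted p = 0.0375). The difference of 72 h from 24 h (-1.67, adjusted p = 0.0778) was called without replicate 3 of 0 h (-1.67, adjusted p = 0.0469), replicate 4 of 24 h (-1.85, adjusted p = 0.0468) or replicate 3 of 72 h (-2.31, adjusted p = 0.0477).

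**Figure D3:**
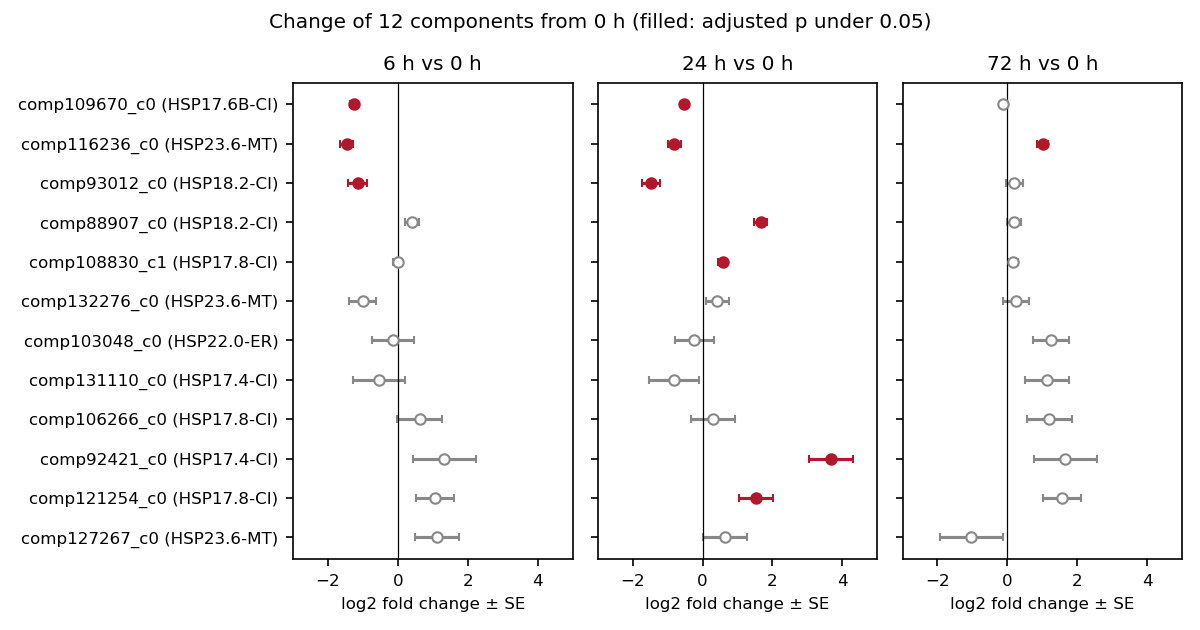
Log2 fold change from 0 h (x axis, ± SE) of the 12 small heat shock protein components (rows) at 6 h, 24 h and 72 h. Filled points have an adjusted p under 0.05 and open points do not. The 3 components called at 6 h lie between -1.47 and -1.15, those called at 24 h lie on both sides of 0, and only comp116236_c0 (1.01) was called at 72 h.

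Summed over normalized counts, the 12 components averaged 735 ± 109 at 0 h, 489 ± 39.9 at 6 h, 870 ± 55.1 at 24 h and 891 ± 53.1 at 72 h (SD, n = 3 at 0 h and n = 4 at the later times). Longer transcripts weigh more in such a sum. The near-equal sums at 24 h and 72 h were made of different components. At 24 h, comp88907_c0 contributed 40.4% and comp109670_c0 27% of it, and at 72 h comp109670_c0 contributed 35.2%, comp116236_c0 25% and comp88907_c0 14%. At 0 h comp109670_c0 alone contributed 46.5%.

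On log2(normalized count + 1) over the 15 libraries, comp109670_c0 and comp116236_c0 correlated at r = 0.84, comp116236_c0 and comp93012_c0 at 0.77, comp109670_c0 and comp93012_c0 at 0.67, and comp88907_c0 and comp108830_c1 at 0.82. Between the 3 components that fell early and these 2, the correlations ranged from -0.69 (comp88907_c0 and comp93012_c0) to 0.03 (comp108830_c1 and comp109670_c0). The values of comp132276_c0 lay between 0.17 and 0.60. These values are descriptive, since the points share 4 time points.

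Features with the course most like the mean of the 12 components were sought among 11869 features with a mean of at least 50 normalized counts. That mean weighs all 12 alike and joins opposite courses, such as those of comp88907_c0 and comp93012_c0 (r = -0.69). Likeness to it is therefore not likeness to each member. The closest were comp119592_c0 (glycosyltransferase, r = 0.86), comp122642_c1 (xyloglucan endotransglucosylase/hydrolase 9, a cell wall enzyme, 0.86), comp121781_c0 (a translation initiation factor, 0.86), comp105511_c0 (0.84) and comp135667_c0 (0.83), over the 15 libraries.

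For single components, a look made after the values had been seen gave other neighbours. For comp109670_c0 the closest 3 were HSP90.1 (comp135518_c0, r = 0.97) and HSP70-4 in comp112561_c0 (0.96) and comp125689_c1 (0.95), both heat-induced cytosolic chaperones in Arabidopsis. For comp116236_c0 they were a calcyclin-binding protein (comp120455_c1, 0.98), the HSP40 ATJ3 (comp123101_c0, 0.96) and a peptidylprolyl isomerase (comp98511_c0, 0.95). For comp88907_c0 the closest features, at 0.98, had no chaperone annotation, and for comp93012_c0 the closest was the nucleolar protein NOP56 (comp132003_c0, 0.93).

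The remaining chaperone system was examined through lists of Arabidopsis homologues. Other alpha-crystallin proteins gave 3 components, 2 of which fell at 6 h, where 7.43% of all features fell. Among these, peroxisomal HSP15.7-PX (comp97471_c0) averaged 54.2, 23.0, 43.5 and 59.6 normalized counts at 0, 6, 24 and 72 h, with a log2 fold change of -1.21 (adjusted p = 0.000667) at 6 h. The other was class III HSP17.4-CIII (comp102367_c0), with means of 0.666 normalized counts at 6 h and 3.21 at 0 h and an adjusted p of 0.0482, and HSP26.5-MT (comp121402_c1) was not called against 0 h.

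A list of genes induced by heat in Arabidopsis, here called heat-induced partners, gave 30 components, of which 29 were mainly of plant origin. Besides chaperones, the list held APX2, GOLS1 and the regulators HSFA2 and MBF1C. Of these 29, 15 fell and none rose at 6 h relative to 0 h, where 7.43% of all features fell. The 15 belonged to 6 homologues, and 9 of them shared HSP70-4 as nearest relative, including both components of comp112561. Of these, comp112561_c1 passed the filter through 0 h only, so its falls from 0 h were built into its selection. At 24 h relative to 0 h, 13 fell and 4 rose, where 21.6% of features fell and 20.2% rose. The 13 included comp133485_c0, which likewise passed through 0 h only. At 72 h relative to 0 h, 5 fell and 5 rose, where 6.1% of all features fell and 7.05% rose. Relative to 6 h, 16 rose and none fell at 72 h, where 10.1% rose. The median log2 fold change of the 29 was -0.90 at 6 h, against 0.00 for all features. HSP90.1 (comp135518_c0) averaged 439, 134, 297 and 496 normalized counts at 0, 6, 24 and 72 h, with a log2 fold change of -1.75 (adjusted p = 1.98e-09) at 6 h. HSP70-4 (comp112561_c0) averaged 2039, 467, 815 and 1621, with -2.13 (adjusted p = 1.11e-12) at 6 h. CLPB3 (comp124293_c0), APX2 and HSP70T-2 also fell at 6 h. Another CLPB3 component, comp135992_c0, was not called at 6 h (log2 -0.23, adjusted p = 0.162). It rose at 24 h (0.52, adjusted p = 0.000248) and 72 h (0.40, adjusted p = 0.0142) relative to 0 h, where comp124293_c0 fell.

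HSP101 (comp124406_c0), the disaggregase that works on aggregates bound by small heat shock proteins, fell by 0.67 (adjusted p = 2.2e-05) at 6 h and rose by 0.65 (adjusted p = 5.25e-05) at 72 h, both on the log2 scale and relative to 0 h. Its means were 753, 472, 804 and 1193 normalized counts at 0, 6, 24 and 72 h. Regulators took another course: MBF1C (comp114232_c0), a heat-induced coactivator, averaged 125, 105, 325 and 336 and rose at 24 h and 72 h, as did HSFA2 (comp125904_c2), with 5.09, 6.17, 13.9 and 17.59. HSA32 rose at 24 h and 72 h as well.

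**Figure D4:**
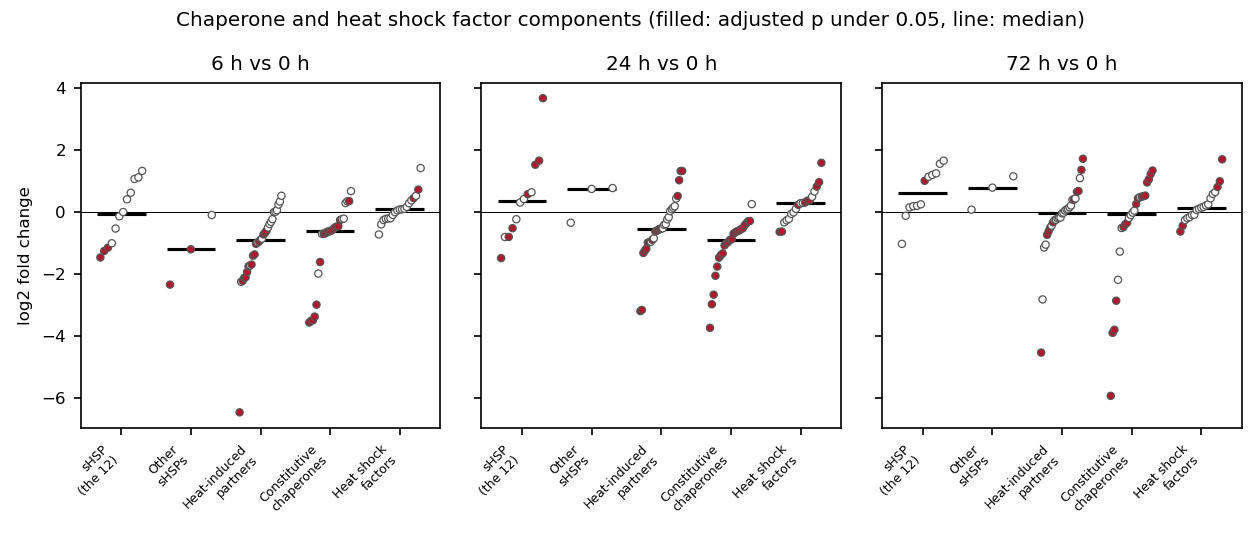
Log2 fold change from 0 h (y axis) of single components (points) in the 12 small heat shock protein components and in 4 lists of plant-derived components, at 6 h, 24 h and 72 h. Filled points have an adjusted p under 0.05, points are ordered by value within a list, and lines mark medians. At 6 h the medians were -0.90 for heat-induced partners, -0.62 for constitutive chaperones and 0.08 for heat shock factors.

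Chaperones made without heat stress in Arabidopsis gave 26 components, 24 of them mainly of plant origin. Of these 24, 16 fell and 1 rose at 6 h, where 7.43% of all features fell, and 23 fell and none rose at 24 h, where 21.6% fell. Both counts include comp102738_c0, comp118746_c0 and comp128861_c0, and that of 24 h also comp123506_c0. These passed the filter through 0 h only, so their falls from 0 h were built into their selection. At 72 h, 9 rose and 7 fell, where 7.05% and 6.1% of all features did. Decreases at both 6 h and 24 h included HSC70-1 (comp129972_c0, log2 -0.50 at 6 h and -0.37 at 24 h) and HSP90.3 (comp134924_c0, -0.69 and -0.62), with HSP90.5, HSP90.6, CPHSC70-1, MTHSC70-2 and HSP70-3. ATJ3 in comp135449_c0 fell at 6 h and was not called at 24 h, while comp122614_c0 and comp123101_c0, also nearest to ATJ3, fell at both times. HSP70-2, BIP1, BIP2 and HSP90.7 fell at 24 h. The decrease at 6 h was therefore found in constitutive as well as heat-induced families.

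Heat shock factors and their binding protein gave 19 components, of which 2 rose and none fell at 6 h, 7 rose and 2 fell at 24 h, and 3 rose and 2 fell at 72 h, relative to 0 h. Over all features, 15.3%, 41.8% and 13.2% changed in these comparisons. Those that rose at 24 h included HSFB2A (comp121537_c0, log2 0.96, adjusted p = 1.33e-05) and HSFB2B (comp123815_c0, log2 0.82, adjusted p = 0.000676), with HSFA3, HSFA4A, HSFA5 and HSFC1, whereas the binding protein HSBP fell. HSFA6B (comp127653_c0) rose at 72 h (log2 1.70, adjusted p = 0.00445). HSFA1E fell at 72 h, as did comp121354_c0, which had 50.5% of its counts on contigs nearest to HSFA1A. Another HSFA1A component, comp92224_c0, was not called at 72 h (log2 -0.10, adjusted p = 0.885).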

How the data were processed

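Poly A+ RNA of 15 libraries was sequenced in pairs on 1 lane. Per the study's methods, the authors trimmed reads with Sickle, assembled them with other leafy spurge reads in Trinity, took the closest proteins of each contig from BLASTX and quantified fragments by RSEM. The deposited table holds expected counts, estimated and not normalized, for 569227 contigs and 223732 components. It also holds 2 columns of the authors' posterior probability of differential expression, which were not used. No genome or contig lengths were used, so levels are not compared between genes.

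Expected counts of member contigs were summed per component, and the remaining contigs of a component formed a feature of their own. Normalized counts are these values over size factors by the median of ratios, computed on components. Features with a mean above 5 at any time point were kept. Rounded expected counts were fitted with edgeR 4.0.16 in R 4.3.3 (quasi-likelihood, all 15 libraries, 4 times, no replicate block), with Benjamini-Hochberg adjustment over 23247 features and a threshold of 0.05 on the adjusted p. The fit weighs deeper libraries more, so its fold changes can differ from ratios of means. Standard errors were derived from the fold change and its F statistic and are approximate. The scripts were tested on simulated data. Replicates of a time point differed by more than sampling, with a chi-square of 1.40 to 5.76 per feature. Alternatives were TMM scaling, DESeq2 1.42.0, limma 3.58.1 on log2(normalized count + 1), other filters, deposited component totals, an E value limit of 1e-20, fits of pairs of times, a replicate block and leaving out each library.

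The members and lists were chosen with earlier results of these data known. Named were all kept members and, from each list, the most abundant component of a homologue if called against 0 h, with HSP101, HSFA2 and MBF1C in any case, and the 5 features closest to the mean course. HSP26.5-MT, further components of a list homologue, other neighbours and within-library ratios were chosen after the values were seen.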

Additional observations from a re-analysis of the deposited data

Results flagged for a closer look

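In 36 groups of 4 libraries (12 components at 3 later times), 1 library stood apart from the others of its group. Replicate 4 of 6 h had 179 normalized counts of the HSP17.6B-CI component comp109670_c0, where the other libraries of 6 h had 127 to 135. This library was below all libraries of 0 h, and it was the highest of the 4 at 6 h for 3 of the 6 components present at every time point. Chance alone gives such a flag in about 1 in 20 groups.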

How the results depend on the processing

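Of 30 calls of single components, 23 stood under every alternative that could be run, 7 were lost under at least 1, and none changed direction. DESeq2 gave no adjusted p for comp127267_c0 at 72 h relative to 6 h, a call that was also lost with limma (-1.56, adjusted p = 0.0593), with no filter on low counts (-2.14, adjusted p = 0.0635) and with component totals (-1.29, adjusted p = 0.129). With limma, comp131110_c0 was not called at 72 h relative to 24 h (1.12, adjusted p = 0.188). With no filter, comp103048_c0 was not (1.49, adjusted p = 0.0558), and with the E value limit of 1e-20, comp108830_c1 was not (-0.44, adjusted p = 0.0528).

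The count of components called at 72 h relative to 0 h was 2 with limma, which added comp121254_c0 (2.01, adjusted p = 0.00764). With normalized counts above 10 required in every library of a time point, 6 components remained, of which 5 were called at 72 h relative to 24 h and 6 for any difference, fewer because fewer were tested.

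Leaving out 1 library gave, relative to 0 h, 3 to 6 calls at 6 h, between 6 and 8 at 24 h and 1 to 3 calls at 72 h. Relative to 6 h it gave 5 to 6 calls at 24 h and between 3 and 6 at 72 h, with 7 to 9 at 72 h relative to 24 h and 7 to 11 for any difference. Without replicate 3 of 0 h, 6 were called at 6 h and 3 at 72 h, and without replicate 3 of 24 h, 2 were called at 72 h. Without replicate 1 of 6 h or replicate 4 of 72 h, 3 were called at 72 h relative to 6 h. The cause was not tested.

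With the replicate number as a block, 4, 7 and 2 components were called at 6 h, 24 h and 72 h relative to 0 h, 6 and 7 at 24 h and 72 h relative to 6 h, 8 at 72 h relative to 24 h and 11 for any difference. Gained under the block were comp88907_c0 at 6 h relative to 0 h (0.51, adjusted p = 0.0404), comp121254_c0 at 72 h relative to 0 h (1.72, adjusted p = 0.0203), and comp103048_c0 (1.44, adjusted p = 0.0437) and comp131110_c0 (1.67, adjusted p = 0.0479) at 72 h relative to 6 h. Deviations from the group means correlated above 0.1 in 11 of 21 same-numbered pairs (range -0.08 to 0.42, median 0.10) and in 7 of 63 pairs with different numbers (median -0.03). The highest correlation was with a library of the same number for 12 of 15 libraries. Same-numbered libraries thus tended to be more alike. The labels name no shared plants or batch, so the main fit did not take the numbers as pairing. Whether such sharing existed was not tested.

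Depth limits the 6 less abundant components, which held 60 to 131 counts each over the 15 libraries.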

Other observations

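Among constitutive chaperones, several were lowest at 24 h and highest at 72 h. BIP2 (comp114368_c0), an HSP70 of the endoplasmic reticulum, averaged 2992, 2550, 1414 and 4264 normalized counts at 0, 6, 24 and 72 h. Against 0 h it changed by -1.08 (adjusted p = 2.47e-08) at 24 h and 0.51 (adjusted p = 0.00188) at 72 h on the log2 scale. HSP90.7 (comp113365_c0), the HSP90 there, averaged 2532, 3230, 1876 and 4910, with 0.35 (adjusted p = 0.00692) at 6 h, -0.43 (adjusted p = 0.000307) at 24 h and 0.96 (adjusted p = 9.34e-08) at 72 h. Of the mitochondrial chaperones, HSP90.6 (comp120916_c0) averaged 484, 319, 259 and 700, and MTHSC70-2 (comp131267_c0) averaged 1443, 934, 889 and 1963. Among small heat shock protein components, the mean of comp93012_c0 was likewise lowest at 24 h and highest at 72 h. Its difference between 24 h and 6 h was not called (log2 -0.34, adjusted p = 0.37). The means of comp131110_c0, comp103048_c0 and comp106266_c0 were also lowest at 24 h and highest at 72 h. These components passed the filter through 72 h only, so their high mean at that time was built into their selection. For comp103048_c0 and comp106266_c0, the means at 0 h, 6 h and 24 h lay close together.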
